A study of Mus musculus with 6 samples.

Results

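The genes described here encode 9 small leucine-rich proteoglycans (SLRPs), Dcn, Bgn, Lum, Fmod, Ogn, Aspn, Prelp, Omd and Podn, and the large chondroitin sulfate proteoglycan versican, Vcan. They were chosen by symbol, with earlier results of these data known, and all 10 were found among the 24964 gene symbols of the deposited table. RNA had been sequenced from uterine tissue around the implanted embryos at gestation day 13, in 6 libraries. The control group held 3 libraries whose genotype is labelled only as control, and the other group held 3 libraries labelled as a myometrial PGR knockout. PGR is the progesterone receptor, and the myometrium is the muscle wall of the uterus. The labels state no strain, age or treatment, and the alleles, the driver of the deletion and whether each library came from 1 mouse are not stated in the sources used here. What the p-values measure is thus the spread among these libraries, part or all of which can be technical. The second group is called the labelled deficient libraries, for a reason given with the level of Pgr below.

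SLRPs are secreted proteins built around a curved array of leucine-rich repeats. Most bind collagen fibrils and set how thick the fibrils grow and how they are spaced, and several also hold growth factors of the TGF-beta family or, once freed from the matrix, act on cell surface receptors. Many carry chains of chondroitin, dermatan or keratan sulfate. Versican is far larger, binds hyaluronan and fills the space between cells with a hydrated matrix. In pregnancy the collagen of uterus and cervix is remodelled as the organ grows, and SLRPs, decorin and biglycan in particular, are among its abundant matrix proteins. The comparison asks which of these transcripts differ between controls and libraries labelled as lacking the progesterone receptor in uterine muscle.

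Among the 10 genes, 1 fell and 0 rose, and 9 did not pass. Prelp was 1.66 times lower in the labelled deficient libraries. Bgn (adjusted p = 0.0516) and Podn (adjusted p = 0.0537) lay just outside the threshold of 0.05, Bgn at 1.48 times its control level and Podn at 0.496 times its control level. Differences are on the log2(FPKM + 1) scale and were tested with limma over the 12500 genes whose mean reached 1 FPKM (fragments per kilobase of gene model, scaled to library size), with Benjamini-Hochberg adjustment over all of them. All 10 members passed that minimum. Over all genes tested, 3.34% passed in either direction (1.34% higher and 1.99% lower), and a single call among 10 genes is too few to set against that share. The 3 values of one group lay wholly above the 3 of the other for 4 members, Bgn and Fmod upward and Prelp and Podn downward, against 29.0% of all genes tested (20.8% upward and 8.16% downward). An unadjusted p under 0.05 was found for the same 4 members and for 21.5% of all genes. The median difference was 0.03 over the members and 0.06 over all genes tested.

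**Figure D1:**
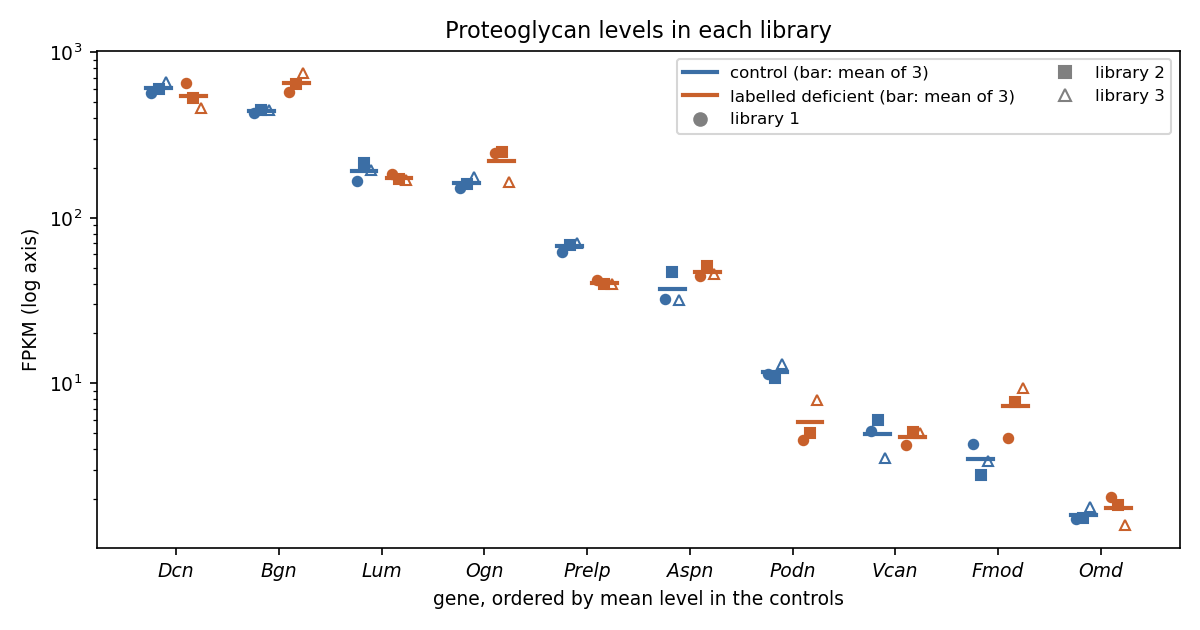
Level of each proteoglycan gene in each of the 6 libraries, in FPKM on a log axis, with controls in blue and labelled deficient libraries in orange. Symbols mark libraries 1 to 3 and bars the mean of 3. Prelp and Podn sit lower and Bgn and Fmod higher in all 3 labelled deficient libraries, and the groups overlap for the other 6 genes.

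Each library summed to 357126 to 377091 FPKM, with 12291 to 12592 genes at 1 FPKM or more. Low values moved in steps that fit a library size of about 36770000 reads, from 275 genes chosen because their steps were regular across the libraries. That choice makes the columns alike, so it cannot show the size of single libraries. The sources used here do not say whether this size is each library's depth or common to all. Single depths are thus unknown, and at this size 3 reads on 1 kb correspond to 0.0816 FPKM. Pgr, the targeted gene, stood at 9.72, 8.33 and 12.1 FPKM across the controls and 11.3, 12.4 and 7.73 FPKM across the labelled deficient libraries. It was not lower in the second group (difference 0.05, SE 0.19, limma adjusted p = 0.912), with p = 0.9 in an exact permutation test (two-sided, smallest possible value 0.1 for 3 against 3). Taken over 12500 genes, which are no replicates of each other, libraries 1 and 2 of a group correlated on the log2 scale at 0.992 (control) and 0.991 (labelled deficient), and each with library 3 of its group at 0.971 to 0.983, so library 3 stood apart in both groups. The tissue holds many cell types besides muscle and the sources used here do not say which part of the gene was deleted, so this is a weak check, and every direction below rests on the labels. Libraries of the tissue carried markers of smooth muscle, fibroblasts, epithelium, endothelium and macrophages, while all 6 trophoblast markers had means under 1 FPKM and Gcm1 was at 0 in every library. The split of calls between higher and lower, 168 and 249, was 218 and 211 after rescaling to equal sums, 123 and 391 with median-of-ratios scaling and 131 and 336 with quantile normalization.

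In bulk tissue, fewer cells of a type and less RNA per cell cannot be told apart. The 8 smooth muscle markers all fell, and their summed level was between 8070 and 9848 FPKM in the controls and between 3261 and 3845 FPKM in the labelled deficient libraries. The 4 mast cell markers also fell, with sums of 26.5 to 32.5 and 1.76 to 4.12 FPKM. Of 6 epithelial markers tested, Krt19 and Cdh1 rose, and the sum over 7 markers went from between 586.3 and 648.3 to between 742.4 and 978.1 FPKM. None of the 8 fibroblast markers passed. Fibroblasts are the best known source of SLRPs, and the markers' sum was 3473 to 3889 in the controls and 2959 to 3308 FPKM in the labelled deficient libraries, most of it from Col1a1 and Col3a1. Single fibroblast markers went both ways. Col1a1, Col3a1, Dpt and Thy1 had lower values in all 3 labelled deficient libraries, Pdgfra, Pi16 and Tcf21 had higher values in all 3, and Lsp1 overlapped. Of 5 decidual stroma markers tested 0 passed, with sums over 6 markers of 150.3 to 429.4 and 53.3 to 89.8 FPKM. Most of that gap came from Prl8a2, at 154.7, 354.6 and 60.4 FPKM in the controls and 5.44, 26.5 and 0.664 FPKM in the labelled deficient libraries. Cryab and Hand2 also had lower values in all 3 labelled deficient libraries. Bmp2 and Wnt4 had higher values in all 3, and Bmp8a overlapped between the groups. The part of these shifts in the proteoglycan results was not tested.

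Class I holds decorin, biglycan and asporin, the nearest relatives within the family. Dcn, on chromosome 10 from 97479609 to 97518143 (plus strand, GRCm38, here and below from GENCODE M21), encodes decorin, which coats collagen fibrils, carries 1 glycosaminoglycan chain and binds TGF-beta. Among the members it had the highest FPKM in the controls, at 569.8, 601.3 and 658.1. It stood at 654.1, 531.6 and 461.1 FPKM in the labelled deficient libraries. The groups overlapped, since deficient 1 lay within the range of the controls while deficient 2 and deficient 3 lay below all of them. The means were 609.7 ± 44.8 and 548.9 ± 97.7 FPKM (SD, n = 3 each), which differ by -0.16 in log2 (95% confidence interval -0.50 to 0.18, limma adjusted p = 0.548). Its sign turned, to 0.01, when library 3 of both groups was left out and to 0.002 with array weights.

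Bgn (chromosome X, 73483602 to 73495933, plus strand) encodes biglycan, decorin's closest relative, which carries a pair of chains and, in soluble form, is a ligand of Toll-like receptors on macrophages. It was at 431.7, 447.4 and 447.7 FPKM across the controls and at 573.6, 643.7 and 747.5 FPKM across the labelled deficient libraries. All 3 labelled deficient libraries lay above all controls, which were within a narrow band. The means were 442.2 ± 9.2 and 654.9 ± 87.5 FPKM (SD, n = 3 each), which differ by 0.56 in log2 (SE 0.11, 95% confidence interval 0.29 to 0.82, limma adjusted p = 0.0516). The call depended on the settings, with adjusted p between 0.0219 and 0.18 over 17 alternatives. It passed in 6 of them, among these rescaling to equal sums (0.0362), quantile normalization (0.0378) and leaving out library 3 of both groups (0.0417), and in none of the 6 fits without a single library.

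The balance of decorin and biglycan transcripts lay in separate ranges in the 2 groups. The ratio of Bgn to Dcn within a library does not depend on how libraries are scaled, and it was 0.758, 0.744 and 0.68 in the controls against 0.877, 1.21 and 1.62 in the labelled deficient libraries. In FPKM, Dcn thus exceeded Bgn in every control and in deficient 1, and was below it in deficient 2 and deficient 3. Which of 2 genes has more transcript also depends on the gene lengths behind FPKM, which are not stated. The exonic length of Bgn is 6099 bases and its longest transcript 2666, against 5838 and 4692 for Dcn. The side of 1 on which the ratio falls is thus uncertain. As a share of the 10 members' summed FPKM, Dcn made up between 38.5% and 41.2% in the controls and between 27.9% and 37.2% in the labelled deficient libraries, and Bgn between 28.0% and 30.0% and between 32.6% and 45.3%. This ratio was chosen after its values were seen and is given with no test. The sum itself was between 1438 and 1599 FPKM in the controls and between 1651 and 1758 FPKM in the labelled deficient libraries, or 0.384% to 0.424% and 0.443% to 0.489% of all FPKM. Within that sum the mean of Bgn, which did not pass, went from 442.2 to 654.9 FPKM. Over the 10 members the log2 difference was above 0 for 5 and below 0 for 5.

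Aspn (chromosome 13, 49544443 to 49567565, plus strand) encodes asporin, a class I member with a stretch of aspartate residues that typically lacks the chains and binds collagen and TGF-beta. Its levels were 32.4, 47.1 and 31.7 FPKM in the controls and 44.6, 50.8 and 46.0 FPKM in the labelled deficient libraries. The groups overlapped through control 2, which lay above deficient 1 and deficient 3. The log2 difference was 0.36 (95% confidence interval -0.02 to 0.74, limma adjusted p = 0.253).

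Class II holds lumican, fibromodulin, PRELP and osteomodulin, which are known for keratan sulfate chains or sulfated tyrosines and for binding fibrillar collagen. Prelp (chromosome 1, 133910304 to 133921414, minus strand) encodes the proline and arginine-rich end leucine-rich repeat protein, whose basic tail binds heparan sulfate and which is known for linking collagen to perlecan in basement membranes. It was at 62.4, 68.9 and 70.1 FPKM across the controls and at 41.8, 39.9 and 39.9 FPKM across the labelled deficient libraries. The groups were well apart and the labelled deficient libraries close together. Prelp fell from 67.1 ± 4.1 to 40.5 ± 1.1 FPKM (SD over 3 libraries each). In log2 this is -0.71 (SE 0.07, 95% confidence interval -0.88 to -0.55, limma adjusted p = 0.00612). It passed in all 6 fits with a single library left out (adjusted p from 0.0156 to 0.0429) and under each scaling, and in 16 of all 17 alternatives. An antisense gene, Gm15851, shares 350 bases, or 9.68%, of the exonic length of Prelp. The sources used here do not say whether the libraries keep strand, and without strand reads of the pair cannot be told apart there.

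Prelp lies next to a related gene that also fell. Optc, of class III, encodes opticin, a protein known from the vitreous body of the eye, and sits 2.3 kb beyond the end of Prelp on the same strand (chromosome 1, 133897199 to 133907999). Optc was at 19.1, 18.7 and 26.0 FPKM across the controls and at 8.74, 10.4 and 12.2 FPKM across the labelled deficient libraries, with no overlap. In log2 it differed by -0.95 (SE 0.16, limma adjusted p = 0.0353). The call was lost in 5 of the 6 fits without a single library (reaching an adjusted p of 0.114) as well as without a filter on low values (0.0645). The ratio of Prelp to Optc was 3.27, 3.69 and 2.69 in the controls and 4.78, 3.83 and 3.26 in the labelled deficient libraries, with overlap.

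The 250 bases before the RefSeq start of 4 genes are shown because these SLRP genes had the smallest p in the comparison, with lower values for Prelp, Optc and Podn and higher values for Bgn. RefSeq windows (GRCm38.p6) were held for 8 of the 10 members and for Optc, and each is written 5′ to 3′ on the strand of its gene. Capitals mark the half-site of the response element shared by the progesterone and glucocorticoid receptors, TGTTCT, searched on both strands together with TGANTCA (AP-1) and TATAAA (the TATA box). Matches of different motifs did not overlap each other.
Prelp, chr1:133921402-133921651, minus strand: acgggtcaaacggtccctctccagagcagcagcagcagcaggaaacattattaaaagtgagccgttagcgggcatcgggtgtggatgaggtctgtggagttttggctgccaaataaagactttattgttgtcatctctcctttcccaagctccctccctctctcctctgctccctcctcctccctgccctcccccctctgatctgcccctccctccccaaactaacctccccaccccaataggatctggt
Optc, chr1:133908000-133908249, minus strand: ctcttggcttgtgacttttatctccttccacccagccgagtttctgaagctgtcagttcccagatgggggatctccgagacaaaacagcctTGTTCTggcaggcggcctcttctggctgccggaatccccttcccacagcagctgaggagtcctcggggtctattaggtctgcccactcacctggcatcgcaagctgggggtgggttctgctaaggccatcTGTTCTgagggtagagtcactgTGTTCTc
Podn, chr4:108031955-108032204, minus strand: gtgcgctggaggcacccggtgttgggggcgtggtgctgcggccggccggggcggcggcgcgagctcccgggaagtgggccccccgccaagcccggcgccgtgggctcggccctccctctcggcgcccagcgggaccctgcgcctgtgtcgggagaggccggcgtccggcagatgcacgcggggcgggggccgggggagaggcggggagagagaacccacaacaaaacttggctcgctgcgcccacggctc
Bgn, chrX:73483351-73483600, plus strand: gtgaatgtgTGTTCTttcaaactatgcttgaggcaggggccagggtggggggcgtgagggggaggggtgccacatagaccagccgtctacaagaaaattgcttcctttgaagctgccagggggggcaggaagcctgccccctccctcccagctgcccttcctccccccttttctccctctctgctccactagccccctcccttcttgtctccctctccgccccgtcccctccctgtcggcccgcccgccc
The half-site was found 3 times before Optc, ending 154, 24 and 2 bases before its start, and 1 time before Bgn, ending 236 bases before. At least 1 match was found in 16.1% of the 32851 RefSeq windows of this length, in 1 of 8 members with a window, and none before Prelp or Podn. The share of windows with 3 matches was not computed. TGANTCA was in 0 of the 8 members' windows and in 6.75% of all. TATAAA was found before 2 of the 8, Ogn and Aspn, against 12.4% of all windows. Its matches end 224 and 222 bases before the start of Ogn and 202 and 173 bases before that of Aspn. The 2 matches before Ogn, on opposite strands, overlap each other. The window before Podn stood apart in composition, with 78.0% G and C and 32 CG dinucleotides, while the medians over all windows were 52.4% and 6, and Podn has a further RefSeq start at 64.0% and 7. Each Podn window lies inside the GENCODE span of the gene (108014791 to 108096445), whose 5′ end on the minus strand is at 108096445. These matches describe letters in the windows, not binding.

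Fmod, 115.8 kb from Prelp on chromosome 1 (134037254 to 134048277, plus strand) with no protein-coding gene between them, went the other way in its values. Fibromodulin regulates fibril thickness in tendon and other tissues and is a known modulator of TGF-beta. Its levels were 4.26, 2.78 and 3.38 FPKM in the controls and 4.63, 7.69 and 9.37 FPKM in the labelled deficient libraries. The groups did not overlap, but deficient 1 lay only just above control 1. The log2 difference was 0.85 with a standard error of 0.24 (95% confidence interval 0.27 to 1.42, limma adjusted p = 0.122), and adjusted p was between 0.063 and 0.323 over 17 alternatives, so Fmod passed in none. The ratio of Fmod to Prelp, chosen after its values were seen, was between 0.0403 and 0.0683 in the controls and 0.111, 0.193 and 0.235 in the labelled deficient libraries.

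**Figure D2:**
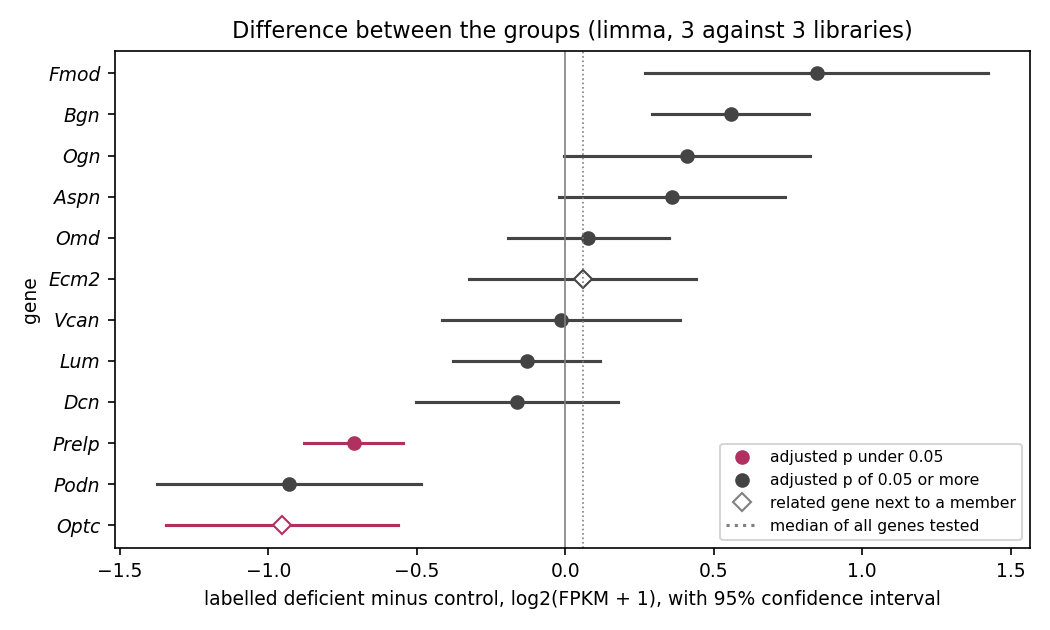
Log2 difference between the labelled deficient and control libraries for the 10 members (circles) and for Optc and Ecm2 (diamonds), with 95% confidence intervals from limma on log2(FPKM + 1). Intervals of Fmod, Bgn, Prelp, Podn and Optc lie to one side of 0, and only Prelp and Optc pass an adjusted p of 0.05. The dotted line is the median of all genes tested, 0.06.

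The other class II members were flat or low. Lum (chromosome 10, 97565128 to 97572703), 47.0 kb from Dcn on the same strand, encodes lumican, which is known for keeping corneal collagen fibrils thin and evenly spaced. It was at 167.8, 214.2 and 193.6 FPKM across the controls and at 183.1, 172.0 and 168.5 FPKM across the labelled deficient libraries, which all lay within the range of the controls. The log2 difference was -0.13, and its 95% confidence interval from -0.38 to 0.12 spans both directions (limma adjusted p = 0.512). Omd (chromosome 13, 49582462 to 49592822) encodes osteomodulin, best known from bone, and had the lowest FPKM among the members. It was at 1.5, 1.52 and 1.77 FPKM in the controls against 2.04, 1.83 and 1.38 FPKM in the labelled deficient libraries. Its groups overlapped (log2 difference 0.08, 95% confidence interval -0.19 to 0.35, limma adjusted p = 0.734), and the pseudocount of 1 FPKM shrinks differences at such levels.

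Of class III, Ogn (chromosome 13, 49608046 to 49624501, plus strand) is a member and encodes osteoglycin, also called mimecan, a collagen-binding protein of connective tissue and vessel walls. It was at 151.7, 161.2 and 175.8 FPKM across the controls and at 245.7, 250.1 and 164.5 FPKM across the labelled deficient libraries. Deficient 1 and deficient 2 lay well above all controls and deficient 3 lay among them. The log2 difference was 0.41 with a 95% confidence interval from -0.01 to 0.82 (limma adjusted p = 0.239). Ogn passed without deficient 3 (0.61, limma adjusted p = 0.0256). It also passed without library 3 of both groups (0.66, limma adjusted p = 0.0145) and with array weights (0.57, limma adjusted p = 0.0304). The higher calls over all genes grew in these fits as well, from 168 to 277, 619 and 1048 in the same order.

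Ogn, Omd, Aspn and the related gene Ecm2 form a row on the plus strand of chromosome 13, with gaps of 15.2 kb between Omd and Ogn, 14.9 kb between Aspn and Omd and 11.7 kb between Ecm2 and Aspn. The row lies within the span of Cenpp, a centromere protein gene on the other strand, which was at 1.19 to 3.16 FPKM and shares 7 exonic bases with Aspn and 0 with Ogn or Omd. Levels within the row ranged widely, with control means of 162.9 FPKM for Ogn, 37.1 for Aspn, 6.0 for Ecm2 and 1.6 for Omd. Ecm2, whose product is an extracellular matrix protein with leucine-rich repeats, had a difference of 0.06 (limma adjusted p = 0.863). The row therefore held no call. On chromosome 10, the genes that follow Dcn and Lum were almost silent, Kera (keratocan, of the cornea) at up to 0.083 FPKM and Epyc (epiphycan, of cartilage) at up to 0.016 FPKM, levels of a few reads at which no comparison was made.

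Podn (chromosome 4, 108014791 to 108096445, minus strand) encodes podocan, of a separate class known in the mouse for restraining growth of vascular smooth muscle cells. It was at 11.3, 10.8 and 13.0 FPKM across the controls and at 4.54, 4.96 and 7.90 FPKM across the labelled deficient libraries. All 3 of the latter lay below all controls, with deficient 3 nearest to them. The means were 11.7 ± 1.2 and 5.80 ± 1.83 FPKM (SD, n = 3 each), which differ by -0.93 in log2 (SE 0.19, 95% confidence interval -1.38 to -0.48, limma adjusted p = 0.0537). Podn passed in 6 of 17 alternatives, among them median-of-ratios scaling (adjusted p = 0.0426), quantile normalization (0.0455), leaving out deficient 3 (0.00889) and leaving out library 3 of both groups (0.0101), and its adjusted p reached 0.167 in the fits without a single library. Relative to Bgn in the same library, Podn stood between 0.0241 and 0.0291 in the controls and between 0.0077 and 0.0106 in the labelled deficient libraries, a ratio also chosen after its values were seen.

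**Figure D3:**
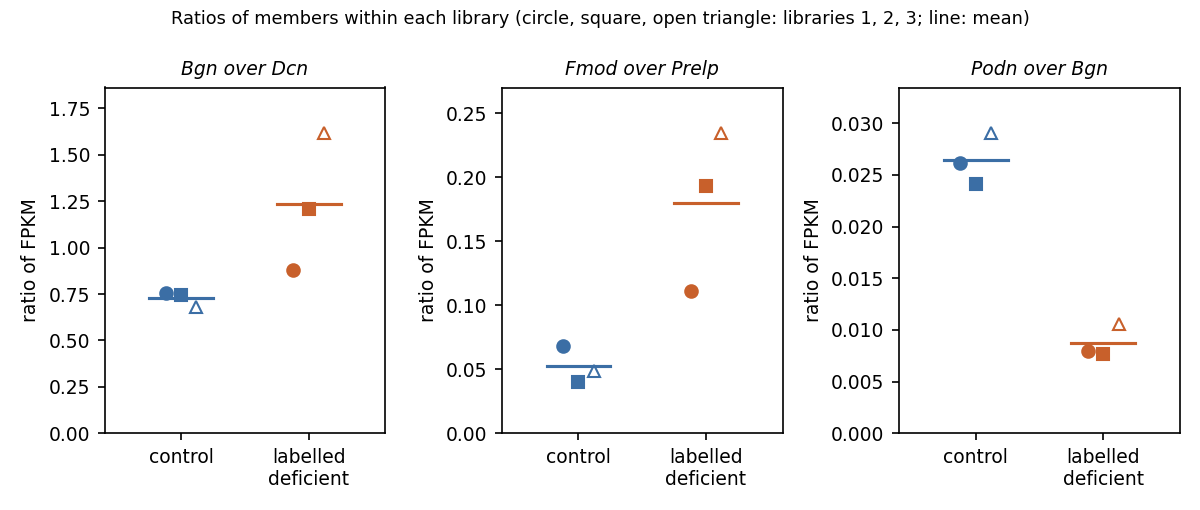
Ratios of FPKM between pairs of members within each library, which do not depend on the scaling of libraries, with lines at the mean of 3. Bgn over Dcn is between 0.68 and 0.758 in the controls and between 0.877 and 1.62 in the labelled deficient libraries, Fmod over Prelp is higher and Podn over Bgn lower in all 3 labelled deficient libraries.

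Vcan (chromosome 13, 89655312 to 89742509, minus strand) was at 5.17, 5.99 and 3.53 FPKM across the controls and at 4.2, 5.05 and 5.0 FPKM across the labelled deficient libraries. The labelled deficient values all lay inside the range of the controls. The log2 difference was -0.02 with a 95% confidence interval from -0.42 to 0.39 (limma adjusted p = 0.969), and its sign changed with the library left out. Versican is usually found with hyaluronan and link proteins. Its neighbour Hapln1, the gene of a link protein, was at 0.059 to 0.134 FPKM and was not tested.

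The order of the members by FPKM differed between the groups. Any order of different genes by FPKM also depends on the gene lengths used, which are not stated. In the controls it ran Dcn, Bgn, Lum, Ogn, Prelp, Aspn, Podn, Vcan, Fmod and Omd, and 2 pairs of neighbours overlapped in their 3 values, Lum with Ogn and Vcan with Fmod. In the labelled deficient libraries it ran Bgn, Dcn, Ogn, Lum, Aspn, Prelp, Fmod, Podn, Vcan and Omd, with overlap between Bgn and Dcn, Ogn and Lum, Fmod and Podn, and Podn and Vcan. Aspn was below Prelp in every control and above it in every labelled deficient library. By rank of the mean among all 12500 genes, Bgn went from 115 to 57 and Prelp from 746 to 1295.

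Prelp, as the member that passed, was compared with all other genes by the shape of its profile over the 6 libraries, as the root mean square distance of log2 values after subtracting each gene's mean. The nearest were Sema3e, a secreted semaphorin that guides vessels and axons, at a distance of 0.046, Nqo1, a quinone reductase, at 0.0634, and Tacc1, a coiled-coil protein tied to microtubules, at 0.0739, where the median distance over 12499 genes was 0.411. All 3 were lower in the labelled deficient libraries, which such a likeness fixes. The pseudocount of 1 FPKM enters this distance and shrinks genes of low level, since in FPKM the control mean was 2.22 times the labelled deficient mean for Sema3e and 2.00 times for Nqo1, against 1.66 times for Prelp. The order with another pseudocount was not computed. Sema3e went from 2.79 ± 0.33 to 1.25 ± 0.13 FPKM and Tacc1 from 31.6 ± 2.7 to 18.7 ± 0.9 FPKM (SD, n = 3 each).

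Around the members, 8 lists of 128 related genes were read from the same fit, of which 101 were tested, 2 rose and 7 fell (8.91% called, against 3.34% of all genes). The lists were chosen with earlier results of these data known, so the larger share cannot be read as an excess around the members. Of 16 other large or cell-surface proteoglycans and versican partners tested, 4 fell and 0 rose, with a median of -0.12. Hspg2, the gene of perlecan, the basement membrane proteoglycan to which PRELP binds, was at 97.0, 93.2 and 94.4 FPKM across the controls and at 49.2, 54.3 and 54.2 FPKM across the labelled deficient libraries (log2 difference -0.84, SE 0.07, limma adjusted p = 0.0038). It passed in all 17 alternatives. Gpc4, a glypican held in the membrane by a lipid anchor, fell by 0.90 on the log2 scale (limma adjusted p = 0.0102), Spock2, the secreted proteoglycan testican, by 1.16 (limma adjusted p = 0.0292), and Cspg4, the NG2 proteoglycan of pericytes, by 0.56 (limma adjusted p = 0.0383). With a single library left out, Gpc4 was lost in 2 of 6 fits, Spock2 in 4 and Cspg4 in 5. Without a filter on low values Spock2 (adjusted p = 0.0538) and Cspg4 (0.0676) were lost as well, as was Cspg4 after rescaling to equal sums (0.0578). Over all 17 alternatives Gpc4 passed in 15, Spock2 in 11 and Cspg4 in 9. The hyaluronan synthases Has1, Has2 and Has3 and the large proteoglycan genes Acan, Ncan and Bcan had means under 1 FPKM and were not tested.

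Among 23 tested enzymes that build the linker and the chondroitin or dermatan sulfate chains, 1 fell, 0 rose and 22 did not pass, with a median of 0.10. The one was Chst12, a sulfotransferase that adds sulfate at the carbon-4 position of the chain's galactosamine, at 60.5, 68.7 and 55.2 FPKM in the controls and 30.8, 31.4 and 30.3 FPKM in the labelled deficient libraries. In log2 it differed by -0.97 (SE 0.09, limma adjusted p = 0.00521). It passed in all 17 alternatives. Of 7 enzymes of keratan sulfate tested, 0 passed (0 at an unadjusted p under 0.05, median -0.00055), and of 10 proteases of versican and other proteoglycans 0 passed with limma (1 at an unadjusted p under 0.05, Adamts1, at 62.7 ± 5.8 and 44.9 ± 7.2 FPKM, SD, n = 3 each). Over all genes tested, 21.5% had an unadjusted limma p under 0.05.

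Of 21 collagens, crosslinking enzymes and other partners of SLRPs in the fibril tested, 1 fell, 0 rose and 20 did not pass, with a median of -0.18. An unadjusted limma p under 0.05 was found for 8 of the 21, against 21.5% of all genes tested. Fn1, the gene of fibronectin, which decorin binds, was at 559.3, 590.2 and 582.7 FPKM across the controls and at 123.7, 167.3 and 136.0 FPKM across the labelled deficient libraries (log2 difference -2.02, SE 0.12, limma adjusted p = 0.0022). Col1a1 and Col3a1, the chains of the main fibrils, differed by -0.22 (adjusted p = 0.229) and -0.34 (adjusted p = 0.153). In the list of TGF-beta signalling, 1 of 12 rose and 0 fell (median -0.02). Ltbp1, which anchors latent TGF-beta in the matrix, rose from 10.2 ± 1.1 to 26.7 ± 3.3 FPKM (SD over 3 libraries each), or 1.31 in log2 (limma adjusted p = 0.00448). Of 8 receptors on which freed SLRPs act, 1 rose, Met, the receptor of hepatocyte growth factor that decorin is known to bind, from 5.87 ± 0.43 to 8.04 ± 0.27 FPKM (log2 difference 0.40, limma adjusted p = 0.0374), and it was lost in all 6 fits with a single library left out and passed in 9 of 17 alternatives. Of the 9 other genes of the SLRP family listed, 4 were tested, 1 fell (Optc) and 3 did not pass (median 0.03), among them Lrrc17 at 5.16 ± 1.09 and 8.48 ± 1.71 FPKM (SD, n = 3 each, limma adjusted p = 0.118).

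**Figure D4:**
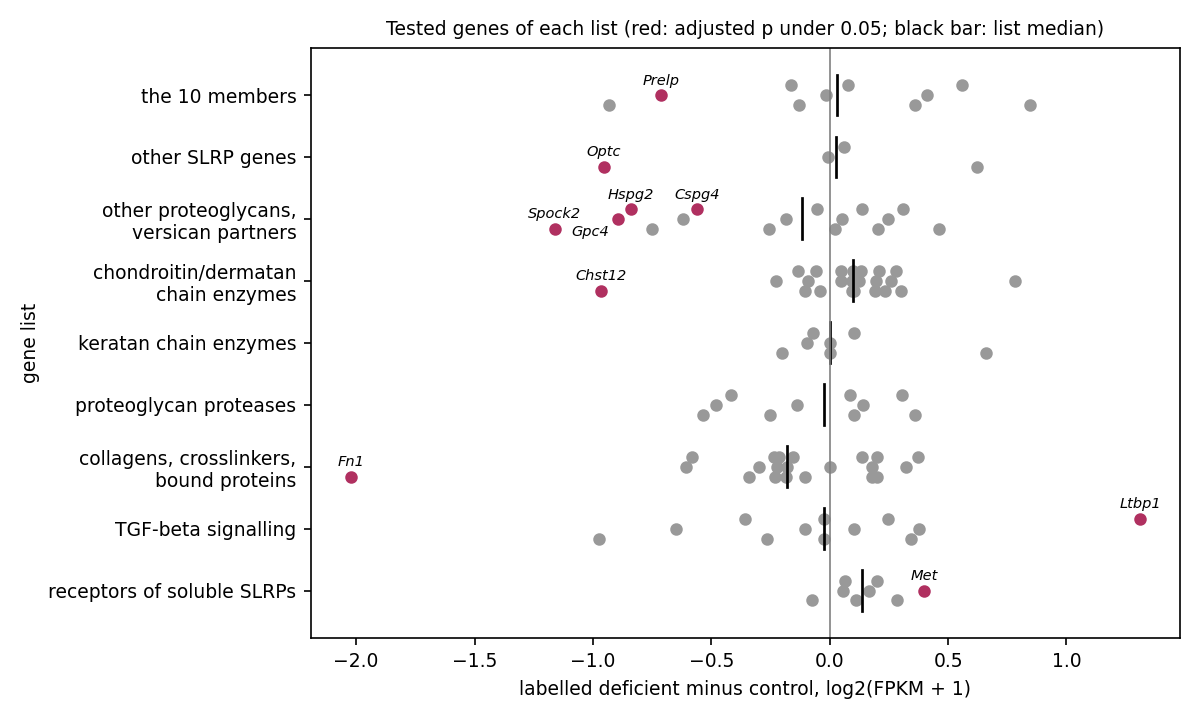
Log2 difference between labelled deficient and control libraries for each tested gene of the 10 members and of the 8 lists, 1 point per gene, with genes past an adjusted p of 0.05 in red and named, and black bars at each list's median. Most points lie within 0.5 of 0, and the calls lie mostly on the lower side, apart from Ltbp1 and Met.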

How the data were processed

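The deposited table holds FPKM values computed by the authors, with a column for each sample. The submitters' processing notes name the build mm10 and the tools STAR 2.7.0f, cutadapt 2.7 and DESeq2 1.24.0, without role or order. For the counting program, the annotation, strandedness and the treatment of reads shared between genes, the sources used here give nothing. Per the labels' protocols, RNA was isolated with TRIzol. FPKM divides by length and library size only, so abundant transcripts can shift all others.

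All 6 columns were matched to samples by name and 0 were left unmatched. limma 3.58.1 in R 4.3.3 (lmFit, eBayes with an intensity trend) was run on log2(FPKM + 1) for genes whose mean reached 1 FPKM, labelled deficient minus control, with no covariate. That scale understates changes of genes with low values. The members, lists, alternatives and rules were chosen with earlier results of these data known. The text names all members, their genomic neighbours of the family, Pgr, up to 4 genes past the threshold per list, and the 3 profiles nearest to each member past the threshold. Genes given beyond that (Adamts1, Has1, Col1a1, Col3a1, Lrrc17, Prl8a2, Bmp2, Wnt4, Cryab, Hand2, Bmp8a, Pdgfra, Pi16, Tcf21, Dpt, Thy1, Lsp1) were chosen after their values were seen. Some genes stand in a gene list and a marker list (Cspg4, Kdr, Col1a1, Col3a1, Dpt). Ccn2 is in the table under its older symbol Ctgf. Of the markers for other cells, 2 of 5 pericyte genes (Kcnj8 and Cspg4) fell, and 0 of 6 endothelial, 5 macrophage and 4 mesothelial genes passed. Filters were applied to deposited values under each scaling.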

Additional observations from a re-analysis of the deposited data

How the results depend on the processing

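Of 168 refits of the 10 members' differences (up to 17 alternatives each), 146 kept their direction and their side of the threshold, 15 passed where the reported fit did not (Bgn, Podn and Ogn), 6 turned sign and 1 lost its call. That 1 was Prelp with the replicate number as a block (adjusted p = 0.0525). Sign turned for Dcn with array weights (0.0023) and without library 3 of both groups (0.011), and for Vcan after rescaling to a sum of 1000000 (0.028) and in fits without a single library (from -0.19 to 0.12). Pgr turned to -0.019 under median-of-ratios scaling and -0.0054 under quantile normalization, and ranged from -0.078 to 0.23 without a single library.

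The number of members called higher was 1 with a minimum mean of 5 FPKM, after rescaling, with quantile normalization and without the trend, 2 with array weights or without library 3 of both groups, and 0 to 1 without a single library. The number called lower was 2 with a minimum mean of 5 FPKM, quantile normalization, median-of-ratios scaling, array weights or without library 3 of both groups, 0 with the replicate block, and 1 to 2 without a single library. Over all genes, array weights gave 1048 higher and 722 lower, the replicate block 31 and 112, median-of-ratios scaling 391 lower, leaving out library 3 of both groups 619 and 656, and leaving out a single library 27 to 277 higher and 71 to 248 lower. In the 8 lists together, no filter gave 1 higher and 4 lower, array weights 5 and 16, the replicate block 1 higher, leaving out library 3 of both groups 7 higher, and leaving out a single library 1 to 2 higher and 3 to 6 lower. The causes were not tested, and fits that leave libraries out also hold fewer samples. Deviations of same-numbered libraries correlated weakly across genes (-0.136, 0.0789 and -0.132), and those of differently numbered libraries at -0.132 to 0.2. With so few libraries per group, this cannot decide whether the labels' numbers pair the samples. The block moved the calls from 168 and 249 to 31 and 112. Depth of single libraries is unknown, and Kera and Epyc are at the level of a few reads.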
